A study of Mus musculus with 14 samples.

Results

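The Bcl2 family of survival and death genes was followed from granule cell precursors to medulloblastoma. The family was taken as 10 genes chosen by name: Bcl2, Bcl2l1, Bcl2l2, Mcl1, Bax, Bak1, Bid, Bad, Bcl2l11 and Hrk. The array annotation gave a single symbol from this list to 15 of the 12422 probe sets, covering 9 of the 10 genes, and Bax was not analysed here. RNA from dissociated mouse cerebellum was measured on 14 expression arrays, 1 per sample. All mice were patched heterozygotes, which carry 1 mutant allele of Ptch1, the receptor that restrains hedgehog signalling, and there was no wild type group. The samples were granule cell precursors from mice 7 days old (GCP, n = 4), preneoplastic cells from mice 6 weeks old (pretumor, n = 5) and tumor cells from mice 10 to 25 weeks old with signs of medulloblastoma (tumor, n = 5). The patched line was kept by breeding with 129X1/SvJ mice. The labels also describe patched heterozygotes carrying a Math1-GFP transgene, without saying whether any of these 14 samples came from them. Cells were collected from the interface of a Percoll step gradient, with no sorting by flow cytometry. Stage is confounded with age. The labels do not say whether the samples of a group are separate animals, and the p-values then cover only the spread among these samples, which may be technical.

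Proteins of this family decide whether the outer membrane of mitochondria stays closed. Bcl2, Bcl2l1 (Bcl-xL), Bcl2l2 (Bcl-w) and Mcl1 hold the membrane closed. Bax and Bak1 open it, which releases cytochrome c and starts the caspase cascade. Bid, Bad, Bcl2l11 (Bim) and Hrk are BH3-only proteins, which sense stress or loss of growth factors and act by binding the other members. In the early postnatal cerebellum, death of granule cells is known to depend on Bax, and Bcl2l1 is the survival member best known for protecting neurons.

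The median intensity per array lay between 4.12 and 4.39, and 29.2% to 29.8% of probe sets reached an intensity of 16. Values below 16 form a band near the lowest intensities, called the low band here, whose distance from background was not measured. Ptch1 (104030_at) read 152 to 182 in GCP, 138 to 231 in pretumor and 120 to 306 in tumor arrays, and this does not check the genotype, which all samples share. Of 9 measured granule cell precursor markers, Atoh1 and Gli1 stayed in the low band on every array. The summed intensity of the 9 was 16900 to 20800 in GCP, 10200 to 14700 in pretumor and 10900 to 17000 in tumor samples. Markers of other cells differed between stages. The astrocyte and Bergmann glia sum (7 genes, Gjb6 and Slc1a2 in the low band throughout) was 8840 to 12200, 779 to 1450 and 391 to 1730 in GCP, pretumor and tumor samples. Its members did not all move with the sum: of 11 probe sets, 2 rose and 2 fell in pretumor against GCP, with a median log2 difference of -0.18. The microglia and macrophage sum (11 genes, 6 of them, Aif1, C1qa, C1qc, Cx3cr1, Itgam and Tyrobp, in the low band throughout) was 169 to 408, 833 to 1380 and 646 to 1920 in the same order. Of its 15 probe sets, 11 had a mean below 16, and 2 rose and 0 fell in each comparison with GCP. The median log2 difference was 0.10 in pretumor and 0.07 in tumor against GCP. The oligodendrocyte sum (7 genes, Mag, Mobp and Sox10 in the low band throughout) was 178 to 284, 284 to 765 and 119 to 198. The red blood cell sum (3 genes, Alas2 in the low band throughout) was 1920 to 4370, 743 to 3410 and 12.9 to 387. The endothelium sum (7 genes, Cdh5, Flt1, Kdr, Pecam1 and Tek in the low band throughout) was 88.5 to 123, 47.4 to 65.9 and 31.5 to 45.6. The Purkinje cell and interneuron sum (6 genes, Gad2 and Pcp2 in the low band throughout) was 81.1 to 183, 48 to 104 and 33.4 to 98.5. Its members did not all move with the sum, and all 8 probe sets had a mean below 16. In pretumor against GCP 0 rose and 1 fell, with a median log2 difference of 0.21. All 4 measured markers of postmitotic granule neurons stayed in the low band. The part of these cells in the results below was not tested, and all 9 measured lymphocyte and neutrophil markers stayed in the low band on all arrays. GCP 1 with GCP 2 (r = 0.9977 over all probe sets) and GCP 3 with GCP 4 (r = 0.9975) were more alike than arrays across these pairs (r = 0.9939 to 0.9956), so GCP may hold fewer than 4 independent samples.

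No member of the Bcl2 family differed between stages past the test. Mcl1 was the only member whose signal lay far above the low band, Bcl2l1, Bcl2l2 and Bid lay just above it, and 11 of the 15 probe sets stayed below 16 on all 14 arrays. limma, with Benjamini-Hochberg adjustment over all 12422 probe sets, called 0 of the 15 in each comparison. The share called among all probe sets was 4.36% in pretumor against GCP, 4.6% in tumor against GCP and 0.998% in tumor against pretumor, and among the 3656 with a mean of 16 or more it was 7.85%, 9.25% and 1.72%. These background shares are small, so a count of 0 in 15 is no result particular to the family. At an unadjusted p under 0.05 the counts were 0, 2 and 0 of 15 in that order, against 15.4%, 15.4% and 11.3% of all probe sets. The median log2 difference over the 15 was 0.02, 0.05 and 0.06, beside -0.005, 0.002 and 0.015 over all probe sets. In unsorted samples, fewer cells of a type and less RNA per cell cannot be told apart.

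**Figure D1:**
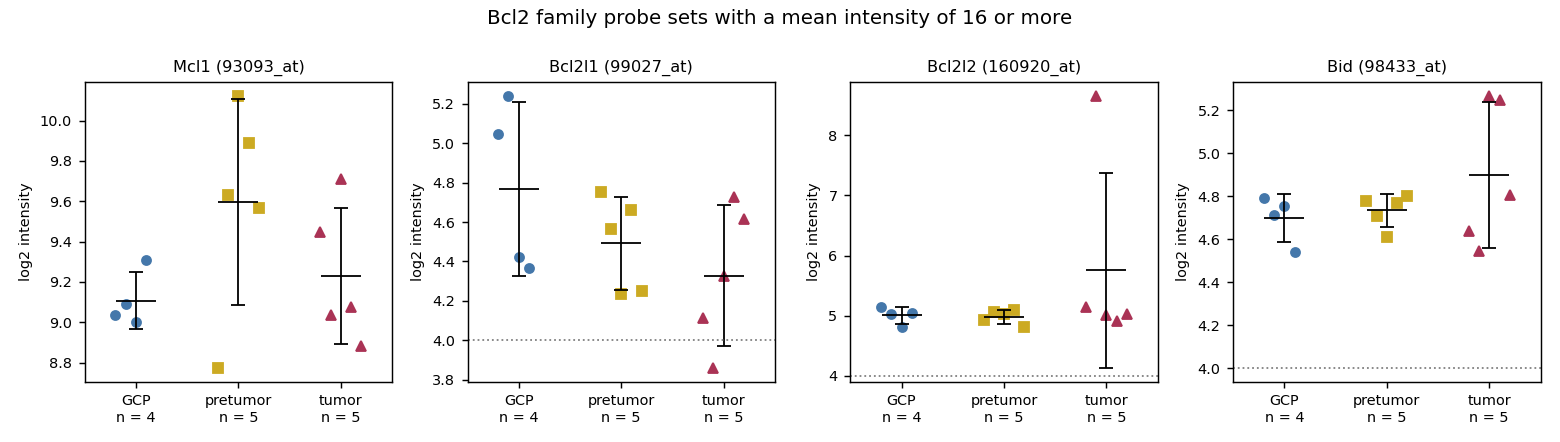
Log2 intensity of the 4 Bcl2 family probe sets with a mean of 16 or more, in GCP, pretumor and tumor samples (1 point per array, bar and whiskers are the mean and SD, dotted line is an intensity of 16, and the vertical axes differ). All groups overlap in each panel, tumor 2 alone is high for Bcl2l2, and the GCP points of Bcl2l1 fall into 2 pairs.

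Mcl1 is a short-lived survival protein whose level follows synthesis and breakdown closely. Its probe set (93093_at) read 524, 544, 512 and 634 in GCP 1 to 4. It read 437, 792, 1114, 950 and 757 in pretumor 1 to 5. In tumor 1 to 5 it read 697, 525, 837, 538 and 472. Of the 5 pretumor arrays 4 lay above every GCP array and pretumor 1 lay below them all, while the tumor arrays lay on both sides of the GCP range and within it. The log2 mean was 9.11 ± 0.14 in GCP, 9.60 ± 0.51 in pretumor and 9.23 ± 0.34 in tumor arrays (SD, n = 4, 5 and 5). Pretumor exceeded GCP samples by 0.49 (95% interval -0.04 to 1.02, limma adjusted p = 0.377), which allows anything from 0.97-fold to 2.03-fold. Tumor exceeded GCP samples by 0.12 (-0.41 to 0.65, limma adjusted p = 0.948), and tumor minus pretumor was -0.37 (-0.87 to 0.14, adjusted p = 0.615). Without pretumor 1 the difference between pretumor and GCP samples was 0.69 and still missed the threshold (adjusted p = 0.0667), and without pretumor 3 it was 0.36 (adjusted p = 0.544). Tumor minus pretumor was -0.57 without pretumor 1 and -0.23 without pretumor 3, and tumor minus GCP was 0.002 without tumor 3, none past the threshold. A search for genes with a like profile over the 14 arrays, given for Mcl1 because its values had been seen, named Ppp1r15b, Dnttip2 and Fam8a1. Their root mean square difference from Mcl1, on centred log2 values, was 0.168, 0.177 and 0.189, where the spread of Mcl1 itself was 0.393, and the search favours genes that share its high value in pretumor 3.

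Bcl2l1 had 2 probe sets that read differently. One (99027_at) gave 33.1, 37.8, 21.4 and 20.6 in GCP 1 to 4. It gave 26.9, 23.7, 18.8, 25.3 and 19.0 in pretumor 1 to 5. In tumor 1 to 5 it gave 17.3, 14.5, 20.0, 26.5 and 24.5, tumor 2 being the only array in the low band. GCP 1 and GCP 2 were the 2 highest arrays of all, and GCP 3 and GCP 4 lay within the range of the other groups, so the higher GCP mean rests on 1 of the alike pairs. The log2 mean was 4.77 ± 0.44, 4.49 ± 0.24 and 4.33 ± 0.36 in GCP, pretumor and tumor samples. Tumor minus GCP was -0.44 (95% interval -0.93 to 0.05, limma adjusted p = 0.397, and 0.788 with each alike pair counted as 1 sample). Pretumor minus GCP was -0.28 (-0.77 to 0.21, adjusted p = 0.675) and tumor minus pretumor -0.16 (-0.63 to 0.30, adjusted p = 0.838). The other probe set (99026_at) read 2.26 to 2.75 on all 14 arrays and 7 of them lay at or below the floor of 2.45, so no comparison is read from it.

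Bcl2l2, a survival member of neurons and testis, was steady on 13 arrays and high on 1. Its probe set (160920_at) read 35.5, 32.7, 28.0 and 32.8 in GCP 1 to 4. It read 30.5, 33.4, 32.5, 34.3 and 28.0 in pretumor 1 to 5. In tumor 1 to 5 it read 35.4, 402, 32.3, 30.3 and 32.7. Tumor 2 was 11.3 times the next array, while the other 13 lay within 1.27-fold of each other. With tumor 2 the log2 mean of the tumor samples was 5.75 ± 1.62, against 4.98 ± 0.12 in pretumor and 5.01 ± 0.14 in GCP samples, and neither difference passed the test (0.77 against pretumor, adjusted p = 0.707; 0.75 against GCP, adjusted p = 0.71). Without tumor 2 the tumor mean was 5.03 ± 0.09 (SD, n = 4). The differences were then 0.04 against pretumor (95% interval -0.13 to 0.21) and 0.02 against GCP (-0.16 to 0.20). Pretumor minus GCP was -0.02, with an interval of -1.41 to 1.37 over all arrays and -0.19 to 0.15 without tumor 2, because all groups share 1 estimate of the spread.

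The high value of Bcl2l2 was not the only one of its kind on that array. In tumor 2, 10 probe sets were at least 8 times every other array, in tumor 3 there were 7, and the other 12 arrays had 0. Rbm39 and Sfpq, which act in RNA splicing, and Gas5, a non-coding RNA, were among the 10 (chosen after their values were seen). Rbm39 (94689_at) read 317 in tumor 2 and at most 15.3 elsewhere, and Gas5 (98530_at) 66.2 and at most 5.96. By the naming rule, the genes whose profile was most like that of Bcl2l2 over the 14 arrays were Gas5 (98531_g_at), Hnrnpu and Pnpt1, with root mean square differences of 0.541, 0.59 and 0.606 where the spread of Bcl2l2 itself was 0.945. The profile of Bcl2l2 is set almost wholly by tumor 2, so the search picks genes that are high there, and this adds nothing to the count of 10.

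Bid links death receptors to the mitochondrial pathway once caspase-8 cuts it. Its probe set (98433_at) read 27.7, 26.2, 27.0 and 23.2 in GCP 1 to 4. It read 27.4, 26.2, 24.4, 27.3 and 27.9 in pretumor 1 to 5. In tumor 1 to 5 it read 24.9, 23.3, 38.5, 38.0 and 28.0. Tumor 3 and tumor 4 were above all other arrays, and the other 3 tumor arrays lay close to the GCP and pretumor range. The log2 mean was 4.70 ± 0.11 in GCP, 4.73 ± 0.08 in pretumor and 4.90 ± 0.34 in tumor arrays. Tumor minus GCP was 0.20 (95% interval -0.11 to 0.51, limma adjusted p = 0.608), tumor minus pretumor 0.17 (-0.12 to 0.46, adjusted p = 0.714) and pretumor minus GCP 0.03 (-0.27 to 0.34, adjusted p = 0.994).

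**Figure D2:**
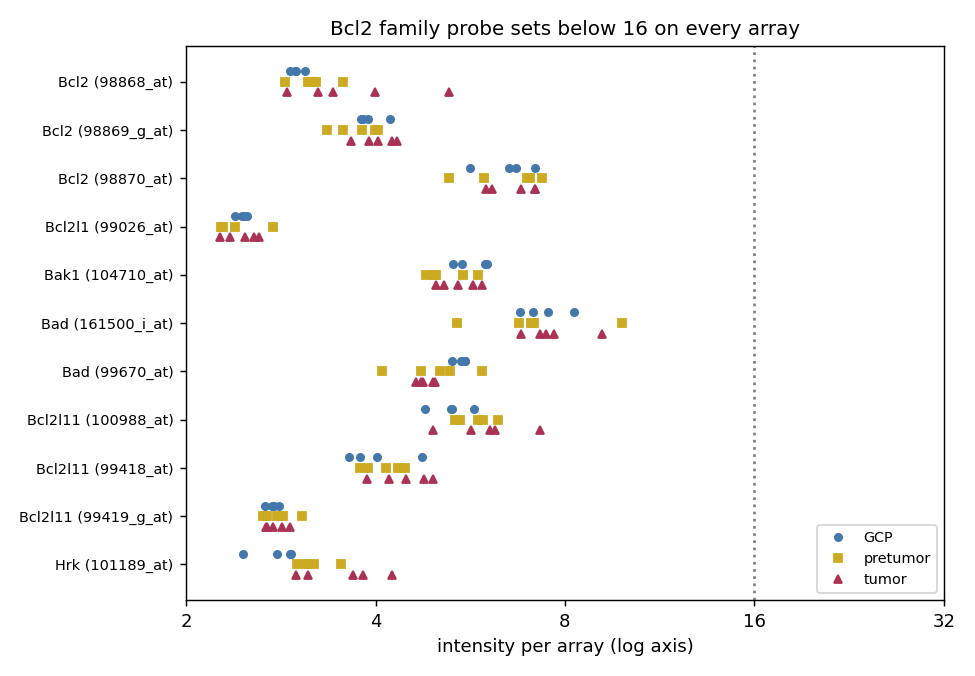
Intensity on each array (horizontal log axis) of the 11 Bcl2 family probe sets below 16 on every array, 1 symbol per array coloured by stage, with a dotted line at 16. All values lie between 2.26 and 9.87. The groups overlap except that Hrk is lower in every GCP sample, and the Bad probe set 99670_at higher in every GCP sample than in any tumor sample.

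The remaining members stayed in the low band on all arrays, and a fold is not given for them. They were the 3 probe sets of Bcl2, the founding survival gene, with 2.88 to 7.35, the 3 of Bcl2l11, which death of neurons after loss of growth factor is known to involve, with 2.65 to 7.31, and the 2 of Bad, which growth factor signalling holds inactive by phosphorylation, with 4.09 to 9.87. The single probe set of Bak1 read 4.81 to 6.01 and that of Hrk 2.47 to 4.25. Log2 differences over these 10 and the low Bcl2l1 probe set ran from -0.14 to 0.20 in pretumor against GCP, -0.18 to 0.35 in tumor against GCP and -0.05 to 0.21 in tumor against pretumor samples. The smallest limma adjusted p was 0.362, 0.0666 and 0.546 in that order. The distance of these levels from background was not measured, and whether a change in these transcripts would have been registered was not tested.

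Hrk, a BH3-only gene induced in neurons deprived of growth factor, came nearest to the threshold. Its probe set (101189_at) read 2.79, 2.47, 2.93 and 2.94 in GCP 1 to 4. It read 3.19, 3.11, 3.13, 3.01 and 3.52 in pretumor 1 to 5. In tumor 1 to 5 it read 4.25, 2.99, 3.12, 3.82 and 3.69. All 10 pretumor and tumor arrays lay above all 4 GCP arrays, tumor 2 by 2.99 against 2.94, and all values are close to the floor of 2.45. The log2 mean was 1.47 ± 0.12, 1.67 ± 0.09 and 1.83 ± 0.21 in GCP, pretumor and tumor samples. Tumor minus GCP was 0.35 (95% interval 0.14 to 0.57, limma adjusted p = 0.0666). It passed the threshold in 4 of 22 alternative settings, among them without tumor 2 (adjusted p = 0.0271) or without tumor 3 (0.0381), over a range of 0.0271 to 0.323. Pretumor minus GCP was 0.20 (-0.01 to 0.41, adjusted p = 0.362). Bad (99670_at) read 5.46, 5.28, 5.54 and 5.55 in GCP 1 to 4, 5.90, 5.07, 4.09, 5.25 and 4.72 in pretumor 1 to 5, and 4.76, 4.63, 4.94, 4.97 and 4.73 in tumor 1 to 5. All tumor arrays lay below all GCP arrays, and the pretumor arrays spread over both, with a difference of -0.18 for tumor minus GCP (limma adjusted p = 0.286, and 0.0155 with these 2 groups fitted alone). Its other probe set (161500_i_at) gave 0.05 (adjusted p = 0.989). Groups did not overlap for 1 of the 15 probe sets in pretumor against GCP (Hrk), 2 in tumor against GCP (Hrk and Bad) and 0 in tumor against pretumor, where 10.3%, 8.2% and 2.68% of all probe sets did not overlap.

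**Figure D3:**
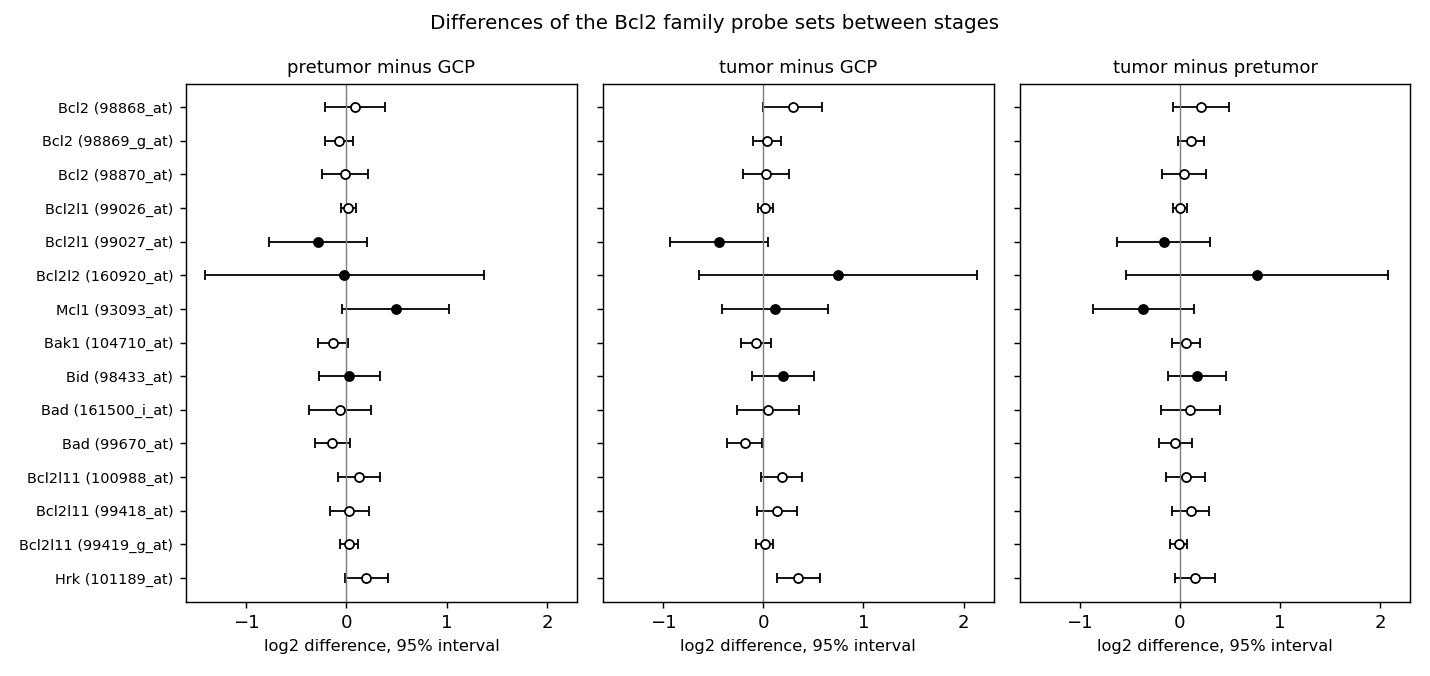
Log2 difference with its 95% interval from limma for the 15 Bcl2 family probe sets for pretumor minus GCP, for tumor minus GCP and for tumor minus pretumor (filled points have a mean of 16 or more, open points lie in the low band). The intervals include or touch 0 except those of Hrk and of Bad 99670_at in tumor minus GCP, and that of Bcl2l2 is wide because of tumor 2.

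Around the family, 7 genes of 3 lists changed in a comparison. As a background, 1.67% of all probe sets rose and 2.69% fell in pretumor against GCP samples. In tumor against GCP samples 1.41% rose and 3.19% fell, and in tumor against pretumor samples 0.209% rose and 0.789% fell. Of the probe sets in the 3 lists, in the order below, 12.5%, 8.11% and 4.65% were called in pretumor against GCP, beside 4.36% of all. In tumor against GCP it was 6.25%, 5.41% and 2.33%, beside 4.6%. In tumor against pretumor it was 6.25%, 0% and 0%, beside 0.998%. Whether the lists differ from this background was not tested. The first list holds 27 other Bcl2 relatives and binding partners, of which only 12 were measured. Of these 12, 7 had a probe set with a mean of 16 or more, and Bcl2l10, Bclaf1, Bik, Bnip1 and Bok had none. Only Bag3, a co-chaperone of Hsp70 that binds Bcl2, was called. The median log2 difference of the 16 probe sets was 0.00 in pretumor against GCP, 0.05 in tumor against GCP and 0.00 in tumor against pretumor samples. Bag3 (161980_f_at) read 46.4, 60.7, 50.7 and 72.3 in GCP 1 to 4, 277, 584, 809, 420 and 618 in pretumor 1 to 5, and 306, 322, 392, 144 and 127 in tumor 1 to 5. All pretumor and tumor arrays lay above all GCP arrays. It rose 8.97-fold in pretumor against GCP samples (95% interval 5.03 to 16, limma adjusted p = 0.000722) and 4.14-fold in tumor against GCP samples (2.32 to 7.38, adjusted p = 0.00938). The second call ended with the alike GCP pairs counted as 1 sample each (adjusted p = 0.097). A second Bag3 probe set (96167_at) stood at 2.24 ± 0.20, 3.93 ± 0.30 and 2.85 ± 0.25 log2 in GCP, pretumor and tumor samples, with 2 pretumor arrays out of the low band. It rose in pretumor against GCP (adjusted p = 0.000223) and fell in tumor against pretumor samples (adjusted p = 0.00623), where the first probe set differed by -1.12 (adjusted p = 0.219). Both calls of this second probe set ended with a floor at 16 (adjusted p = 1 in each). The microglia sums given above were also higher in pretumor and tumor than in GCP samples, and their part in the Bag3 result was not tested. The Bcl2a1 genes share 3 probe sets that the annotation gives to several genes, and these were left out.

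The second list holds the mitochondrial death pathway downstream of the family, with 25 measured genes, 12 of them in the low band. In pretumor against GCP samples 0 rose and 3 fell, in tumor against GCP 0 rose and 2 fell, and in tumor against pretumor none was called. The median log2 difference of the 37 probe sets was -0.06, 0.00 and 0.04 in that order. Mtch2, an outer membrane protein that is a receptor for truncated Bid, fell by 0.94 in pretumor against GCP samples (9.07 ± 0.08 against 10.01 ± 0.13, limma adjusted p = 0.000393). It fell by 0.82 in tumor against GCP samples (9.20 ± 0.23 against 10.01 ± 0.13, adjusted p = 0.000763). All 10 pretumor and tumor arrays, at 458 to 682, lay below the 4 GCP arrays at 935 to 1160, and these calls held in all 24 alternative settings. Slc25a5, an ADP/ATP carrier of the inner membrane, fell by 0.43 in pretumor against GCP samples (adjusted p = 0.0212). That call ended in 8 of 24 settings, among them without GCP 1, GCP 3, GCP 4, pretumor 2 or pretumor 5. It also ended with the alike GCP pairs counted as 1 sample each (limma adjusted p = 0.147). The 2 other probe sets of the gene (100617_at and 100619_r_at) gave -0.04 and -0.42 without passing. Dffa, the inhibitor of the nuclease that cuts DNA in dying cells, stood near the limit of 16 and fell in both comparisons with GCP. Its level was 3.54 ± 0.19 in pretumor, 3.46 ± 0.17 in tumor and 4.09 ± 0.15 log2 in GCP samples (adjusted p = 0.0176 for pretumor and 0.00775 for tumor). Another probe set of Dffa (160866_at), with group means in the low band, did not pass. It differed from GCP by -0.13 in pretumor (limma adjusted p = 0.33) and by -0.15 in tumor samples (adjusted p = 0.267). The astrocyte and endothelium sums were also lower on all pretumor and tumor arrays than on all GCP arrays, and the red blood cell sum on all tumor arrays, and their part in the results for Mtch2, Slc25a5 and Dffa was not tested. Without GCP 1 or GCP 4 the pretumor call of Dffa ended, and both its calls ended with the alike GCP pairs counted as 1 sample each (adjusted p = 0.114 for pretumor and 0.0617 for tumor) and with a floor at 16.

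The third list holds genes known to set the level or activity of family members, with 30 measured genes, 11 of them in the low band. In pretumor against GCP samples 1 rose and 1 fell, in tumor against GCP 1 rose and 0 fell, and in tumor against pretumor none was called, with median log2 differences of -0.02, 0.01 and 0.02 over 43 probe sets. Jun, whose product induces Bcl2l11 and Hrk in neurons deprived of growth factor, rose 2.19-fold in tumor against GCP samples (11.75 ± 0.59 against 10.61 ± 0.32, limma adjusted p = 0.0288). This call ended in 11 of 24 settings, among them without GCP 2, GCP 3 or GCP 4 and without tumor 1, tumor 2 or tumor 4 (range of adjusted p 0.00413 to 0.173). The highest value came with the alike GCP pairs counted as 1 sample each. In pretumor against GCP samples Jun differed by 0.94 (limma adjusted p = 0.0684), which passed in 3 of 24 settings. All pretumor arrays, at 2797 to 3622, lay above all GCP arrays, at 1304 to 2032. The tumor arrays overlapped the GCP arrays, with tumor 3 at 1954. Mapk8 (104047_at), a kinase (JNK) that acts on Jun, fell by 0.48 in pretumor against GCP samples (9.01 ± 0.14 against 9.49 ± 0.09, limma adjusted p = 0.0154). This no longer passed when GCP 4 was left out (0.0531) or with the alike pairs counted as 1 sample each (0.125). A second Mapk8 probe set (100391_at), with group means in the low band, differed by -0.16 without passing (adjusted p = 0.085). Mapk10, the neuronal JNK, rose within the low band (100470_at, 3.41 ± 0.17 in pretumor against 2.81 ± 0.19 in GCP samples, adjusted p = 0.0221). That call ended in 6 of 22 settings, those without GCP 2, GCP 3, GCP 4, pretumor 1 or pretumor 4 among them. With the alike GCP pairs counted as 1 sample each it ended too (limma adjusted p = 0.144). Its other probe set (161575_f_at) differed by 0.64 (adjusted p = 0.0761).

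**Figure D4:**
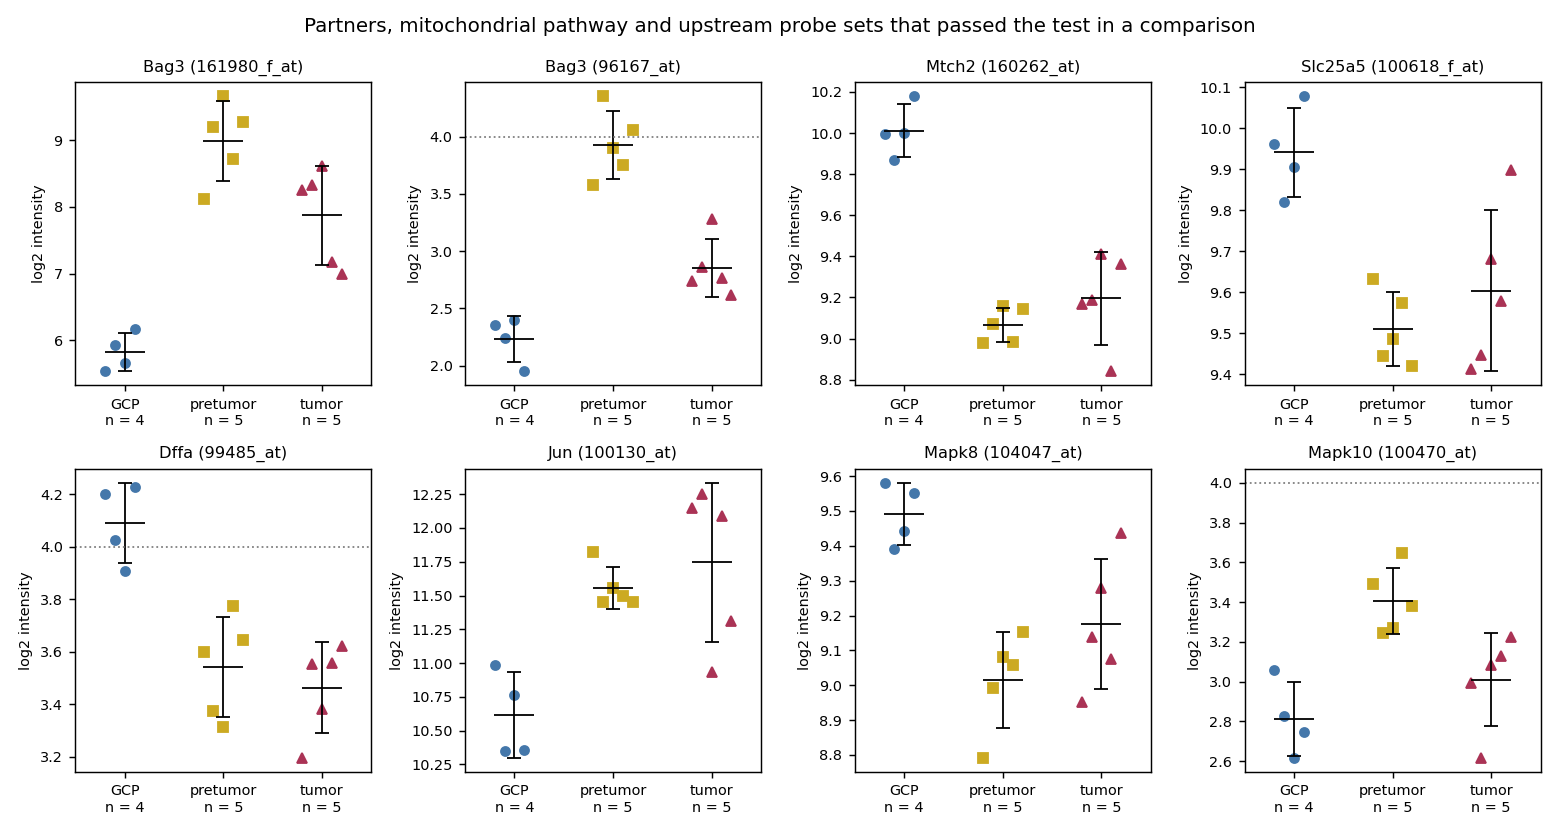
Log2 intensity of the 8 probe sets of the 3 lists that passed the test in a comparison, in GCP, pretumor and tumor samples (1 point per array, bar and whiskers are the mean and SD, dotted line at an intensity of 16 where in range, vertical axes differ). Both Bag3 probe sets have their highest mean in pretumor samples, with overlap between pretumor and tumor arrays for 161980_f_at, and Mtch2 is lower in all pretumor and tumor than in all GCP samples.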

How the data were processed

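The data are linear intensities deposited as 1 value for each probe set and array. The authors' summarisation and normalisation of these intensities are not given in the sources used here. No normalisation was added, since array medians lay within 0.094 log2 units, below a limit of 0.2. The 66 control probe sets were set aside. Lower values were raised to a floor of 2.45, the 10th percentile, before log2. limma 3.58.1 in R 4.3.3 fitted 3 group means to the remaining 12422 probe sets (11 residual and 0.83 prior degrees of freedom). P-values were two-sided, and a probe set was called at a Benjamini-Hochberg adjusted p under 0.05. Errors are SD. The fit was tested on simulated data. The array annotation gave 1 symbol to 10833 probe sets, several to 396 and none to 1193. By gene ID a reference table (GRCm38.p6) held 10817 of the first kind, and 0 needed an update.

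The members and gene lists were chosen with earlier results of these data known. Named were all member probe sets and the called genes of 3 lists. Likeness was searched for the 4 member probe sets with a mean of 16 or more. The search ran over the 3479 probe sets with 1 symbol, other than the member's own, at 16 or more on at least 4 arrays. By rule it is given for the member with the largest difference. It is given for Mcl1 too, chosen after its values were seen, and not for Bcl2l1 and Bid. Levels of different probe sets are not comparable. Alternatives changed the floor, scale, filter, moderation, samples and block. Arrays have no read depth, and their number limits the precision. Replicate numbers were not taken to pair the samples.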

Additional observations from a re-analysis of the deposited data

Results flagged for a closer look

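Among 69 groups of values tested, 3 held an array far from the rest of its group, and chance alone gives about 1 in 20. Bcl2l2 (160920_at) read 402 in tumor 2, against 30.3 to 35.4 in the other tumor samples. Bcl2l1 (99026_at) read 2.75 in pretumor 3, against 2.27 to 2.39 in the other pretumor samples, all of which lay below the floor. Jun (100130_at) read 3620 in pretumor 1, against 2800 to 3010 in the other pretumor samples.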

How the results depend on the processing

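The 15 Bcl2 family probe sets gave 1014 values over 24 alternative settings, and 5 of them passed the threshold, all in tumor minus GCP. For Hrk these were the trended robust prior (adjusted p = 0.0494), the settings without tumor 2 (0.0271), without tumor 3 (0.0381) and without pretumor 3 and tumor 2 together (0.0378). For Bad (99670_at) it was the fit of the compared groups alone (0.0155). The count called in tumor minus GCP was therefore 1 in those settings, and 0 to 1 with 1 array left out, against 0 with all arrays. In the other comparisons it was 0 in all settings. The sign turned in 33 of the 1014 values, none past the threshold, and the cause was not tested.

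Over all probe sets, 124 were called in tumor minus pretumor, 571 in tumor minus GCP and 541 in pretumor minus GCP. A floor at 16 gave 32, 232 and 194, and counting the alike GCP pairs as 1 sample each gave 69, 198 and 168. Fitting the compared groups alone gave 50 in tumor minus pretumor and 335 in tumor minus GCP. With 1 array left out the counts were 70 (without pretumor 2) to 148 in tumor minus pretumor, 338 (without GCP 4) to 709 in tumor minus GCP, and 331 (without GCP 4) to 624 in pretumor minus GCP. The cause was not tested. With a replicate block 76 were called in tumor minus pretumor. Same-numbered arrays were compared after the group mean of each probe set was subtracted. The correlation of what remained was 0.38, 0.28, 0.51 and -0.27 for numbers 1 to 4 in pretumor and GCP. It was -0.31 to -0.041 in tumor and GCP, and -0.32 to 0.3 in tumor and pretumor. No comparison had all its pairs above 0.1, so the numbers were not taken to pair samples. Only pretumor 1 and pretumor 3 were most like the GCP array of their own number. No tumor array was most like its own number in either other group. The block changed the call of no family member.

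Log2 differences that turned sign lay near 0. With aligned medians Bcl2l1 (99026_at) was at -0.01 in tumor minus pretumor and Bcl2 (98870_at) at 0.007 in pretumor minus GCP. On the log2(value + 16) scale Bcl2l1 (99026_at) was at 0 after rounding in tumor minus GCP and at -0.005 in pretumor minus GCP. With the replicate block Bcl2l11 (99419_g_at) was at -0.009 in tumor minus GCP, and Bcl2 (98870_at) and Bcl2l2 were at 0.016 and 0.09 in pretumor minus GCP. Without pretumor 3 and tumor 2 together Bcl2 (98870_at) was at 0.022 and Bcl2l1 (99026_at) at -0.01 in pretumor minus GCP.

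With 1 array left out, tumor minus pretumor ran from -0.035 to 0.087 for Bcl2 (98870_at), -0.013 to 0.033 for Bcl2l1 (99026_at), -0.118 to 0.014 for Bad (99670_at), and -0.014 to 0.127 and -0.035 to 0.017 for Bcl2l11 (100988_at and 99419_g_at). Tumor minus GCP ran from -0.033 to 0.08 for Bcl2 (98870_at), -0.018 to 0.1 for Bad (161500_i_at) and -0.003 to 0.028 for Bcl2l11 (99419_g_at). Pretumor minus GCP ran from -0.073 to 0.068 for Bcl2 (98870_at), -0.01 to 0.031 for Bcl2l1 (99026_at), -0.089 to 0.025 for Bcl2l2, -0.019 to 0.066 for Bid and -0.176 to 0.041 for Bad (161500_i_at). For Bcl2l11 it ran from -0.016 to 0.112 (99418_at) and from -0.001 to 0.05 (99419_g_at).

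The filter on low values removed the 11 family probe sets of the low band, and the floor at 16 left them with no difference to test, so both settings hold values for Mcl1, Bcl2l1 (99027_at), Bcl2l2 and Bid alone. Low signal limits what can be read for the other members, and the number of arrays limits the precision for all.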
